A study of Mus musculus with 10 samples.

Results

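Transcripts of the surface proteins that define a leukemia stem cell sort gate were examined in Nup214 heterozygous and control mouse leukemia. The set held 9 genes, chosen by symbol from the 52171 genes of the deposited table. Kit, Cd34, Fcgr3, Fcgr2b and Ly6a encode the antigens named in the sort (c-Kit, CD34, CD16/32 and Sca-1). Il7r, Ptprc, Ly6g and Cd3e stand for common lineage exclusion or pan-leukocyte markers, whereas the labels give the lineage gate only as "Lin" and do not list its antibodies. All 9 were in the table and all 9 passed the filter on low values, beside 22458 genes in all.

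Cells came from the bone marrow of mice in which MLL-AF9, an oncogenic fusion present in both groups, drives acute myeloid leukemia. The gate kept cells that lacked lineage markers and Sca-1 and that carried CD34, CD16/32 and c-Kit. The Nup214 heterozygous group (5 libraries) had the genotype Nup214fl/+,Tie2-cre, and the floxed control group (5 libraries) had Nup214fl/+ without the recombinase. Both groups thus carried 1 floxed allele of Nup214, a gene of the cytoplasmic face of the nuclear pore. Tie2-Cre acts in endothelial and blood cells, and because no control carried it, its own effects cannot be told apart from those of the Nup214 allele. The labels give no age, no count of animals and no word on pooling.

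As background, c-Kit is the receptor tyrosine kinase for stem cell factor, and it marks immature blood cells and is lost during most myeloid maturation. In the normal mouse marrow, CD34 together with the low-affinity Fc gamma receptors CD16 and CD32 separates granulocyte-monocyte progenitors from other myeloid progenitors, and MLL-AF9 leukemia stem cells are commonly sorted with that phenotype. A sort reads protein on the cell surface, and a transcript level among the sorted cells need not follow it.

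Nup214 read 376, 504, 602, 446 and 492 normalized reads in heterozygous libraries 1 to 5, against 867, 908, 984, 811 and 959 in control libraries 1 to 5. Normalized reads are the authors' read counts divided by 1 factor per library, and are not per gene length. Every heterozygous library lay below every control, at 53.4% of the control mean, so the targeted gene was lower in the group labelled heterozygous. Depth was 24.6 to 39.1 M recovered reads in heterozygous libraries and 20.8 to 30.1 M in controls, with 19541 to 25684 and 26913 to 30277 genes having a read. The labels call the cells hematopoietic stem cells, and the cells are called here by their gate. Of genes used to mark stem cells, Thy1 and Procr were under 10 normalized reads in every library, while Slamf1 ran from 6.35 to 16.3 in heterozygous libraries and from 23.4 to 86.3 in controls. Heterozygous libraries 1 and 2 stood apart from libraries 3, 4 and 5 in neutrophil, monocyte and globin genes, and the members are given with and without them. That split was made after the levels had been seen, so its values and counts are a description.

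Among the gate markers, transcripts of Kit and Ly6a were lower in Nup214 heterozygous cells, none was called higher, and 7 were not called. Kit stood at 55.6% and Ly6a at 58.7% of the control mean. The Fc receptor genes Fcgr3 and Fcgr2b and the progenitor gene Cd34 did not pass the test, nor did Ptprc, Ly6g, Il7r or Cd3e. Calls required a limma Benjamini-Hochberg adjusted p under 0.05 over all 22458 genes. At that threshold 8.01% of all tested genes were called lower and 5% higher (1798 and 1122 genes), 13% in either direction. With 9 members, 2 calls are too few to set apart from that background. The median log2 fold change of the 9 members was -0.55, and that of all tested genes was -0.19, both heterozygous minus control. A log2 fold change is here the difference of mean log2(normalized reads + 1), which need not match the ratio of the means.

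**Figure D1:**
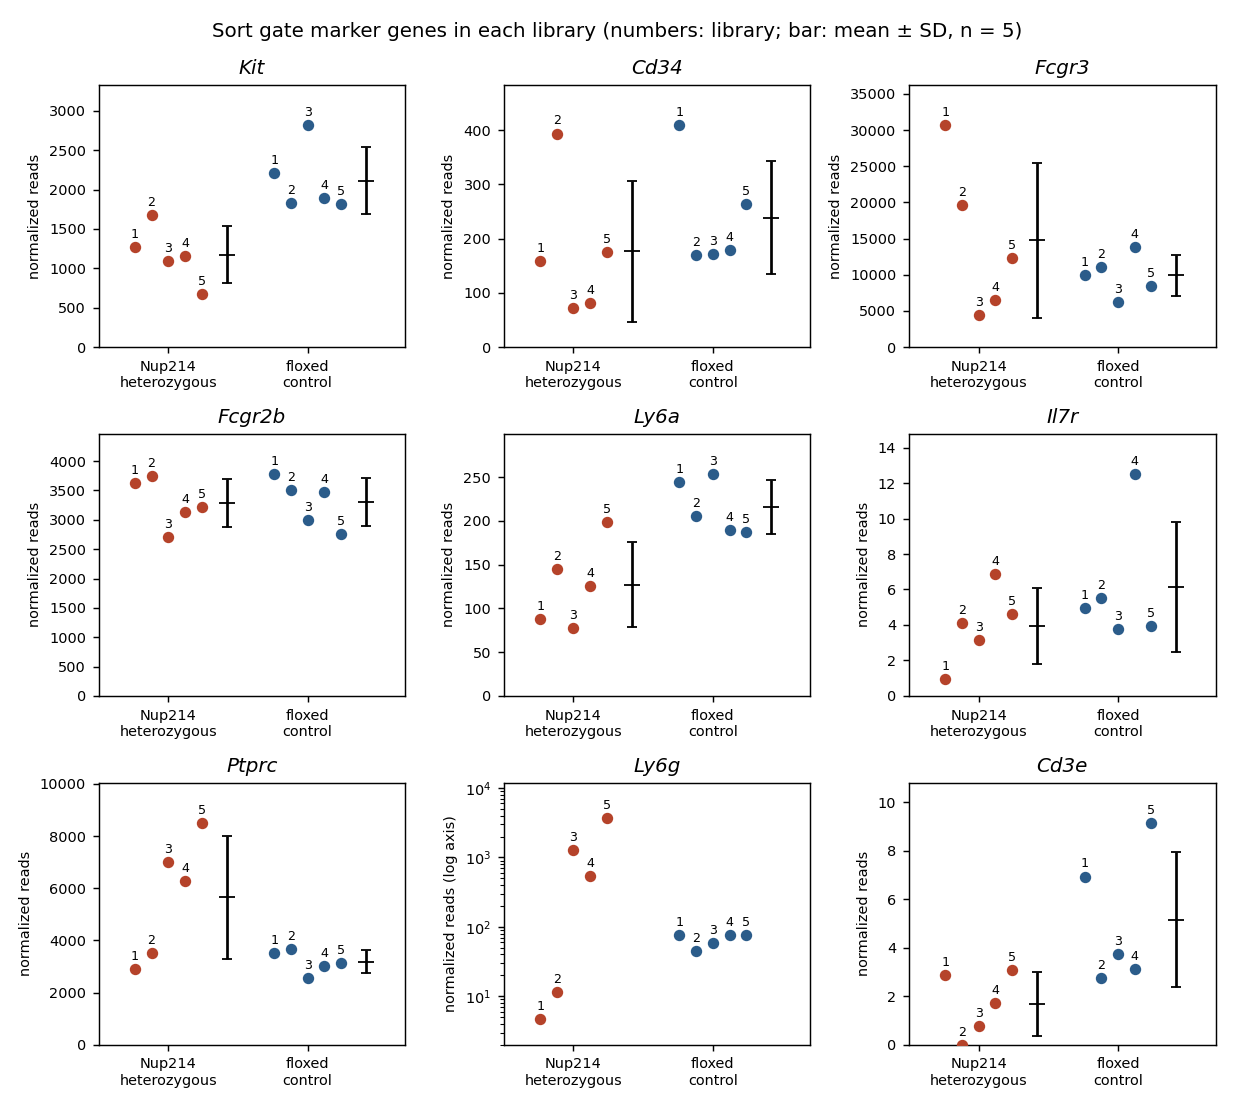
Normalized reads (vertical axis, linear from 0 except for Ly6g, where it is logarithmic) of the 9 sort gate marker genes in the 5 Nup214 heterozygous libraries (left, red) and the 5 floxed controls (right, blue). Points carry their library number and bars give mean ± SD, n = 5, except for Ly6g. For Kit every heterozygous point lies below every control point, and for Ly6g the heterozygous points lie on both sides of the controls, from 4.77 to 3679.

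Compared per kb of exon, which allows genes of different length to be ranked, Fcgr3 led in both groups. It averaged 8491 normalized reads per kb ± 6149 in heterozygous libraries and 5708 ± 1655 in controls (SD, n = 5 each). In heterozygous libraries the order was Fcgr3, Ly6g, Fcgr2b, Ptprc, Kit, Ly6a, Cd34, Il7r and Cd3e. In controls it was Fcgr3, Fcgr2b, Kit, Ly6a, Ptprc, Ly6g, Cd34, Il7r and Cd3e. In heterozygous libraries the ranges of neighbours did not overlap between Fcgr2b and Ptprc, Ly6a and Cd34, or Cd34 and Il7r, and the other neighbours did overlap. In controls the ranges of Kit, Ly6a and Ptprc overlapped from neighbour to neighbour, as did those of Ly6g and Cd34 and those of Il7r and Cd3e. The rank of Ly6g in heterozygous libraries rests on libraries 3, 4 and 5, since its level ran from 5.07 to 3906 per kb there, against 48.1 to 82.1 per kb in controls. Ptprc exceeded Kit per kb in all 5 heterozygous libraries, by 1.02 to 6.15 times, and in 0 of 5 controls, where the ratio was 0.442 to 0.979.

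**Figure D2:**
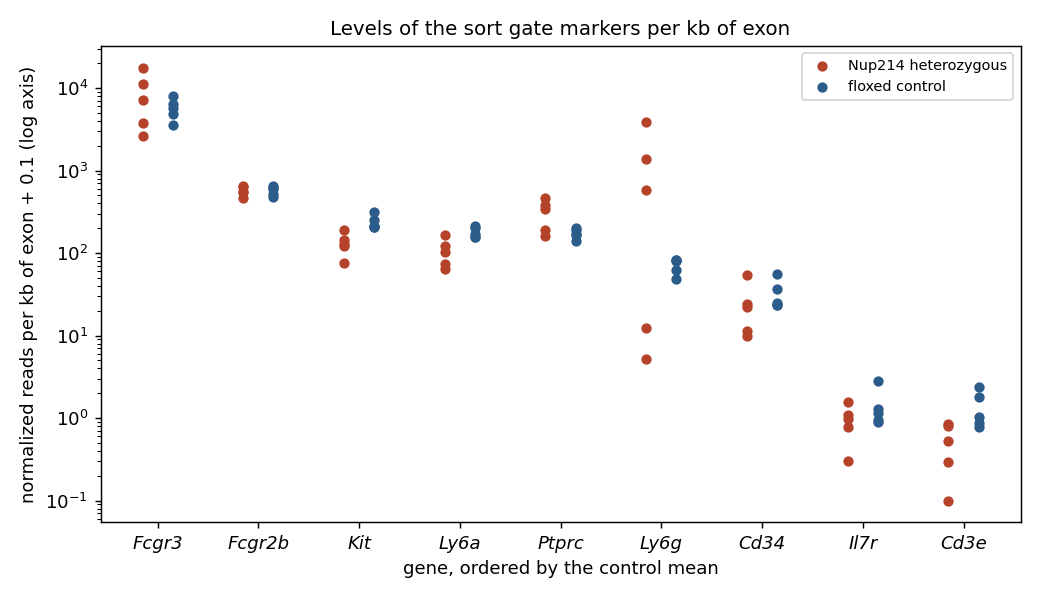
Normalized reads per kb of exon, plus 0.1, on a logarithmic axis for the 9 genes in order of their control mean, with heterozygous libraries (red) left of controls (blue). Fcgr3 is the highest gene by its mean in both groups, and Il7r and Cd3e are the lowest.

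Kit (ENSMUSG00000005672.12, chr5:75574916-75656722 of mm10, plus strand) encodes the receptor by which the cells were positively selected. It read 1271, 1676, 1097, 1152 and 673 normalized reads in heterozygous libraries 1 to 5, against 2209, 1825, 2820, 1887 and 1822 in control libraries 1 to 5. All 5 heterozygous libraries were below all 5 controls, the lowest being heterozygous library 5, and Kit was the only member whose groups did not overlap. Of all tested genes, 6.67% were lower without overlap and 11.3% were apart in either direction. The mean was 1174 ± 360 in heterozygous cells and 2113 ± 427 in controls (SD, n = 5 each), a log2 fold change of -0.89 (SE 0.207, limma adjusted p = 0.0184). In RNA from a pool of cells, fewer cells with a transcript and less transcript per cell cannot be told apart. The call ended without control library 1 (limma adjusted p = 0.0521). Among the alternatives other than leaving out 1 library, the call held in 12 and ended in 1, the fit without heterozygous libraries 3, 4 and 5. The value was -1.13 without heterozygous libraries 1 and 2 and -0.51 without libraries 3, 4 and 5. Scaling moved the whole table, with a median over all genes of -0.02 after quantile normalization, -0.13 with TMM and -0.81 with upper quartile scaling. Relative to the median of all genes, Kit was at -0.70 as fitted, -1.02 after quantile normalization, -0.69 with TMM and -0.77 with upper quartile scaling. Genes called higher made up 38.4% of all calls in the reported fit, 60.1% with quantile normalization, 48.4% with TMM and 1.81% with upper quartile scaling.

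Of 20 Kit ligand and signalling genes tested, Lyn was called higher, Ptpn11 lower and 18 were not called, with a median log2 fold change of 0.04. Lyn, a Src family kinase that also acts below Fc receptors, averaged 3785 ± 1018 normalized reads in heterozygous cells and 2409 ± 129 in controls (SD, n = 5 each, log2 fold change 0.61, limma adjusted p = 0.0324). Ptpn11, the gene of the phosphatase SHP2, averaged 375 ± 28.1 in heterozygous cells and 520 ± 85.0 in controls (log2 fold change -0.46, limma adjusted p = 0.0355). Leaving out 1 library ended the call of Lyn in 8 of 10 fits, all but those without heterozygous library 1 or 2, and that of Ptpn11 in 6, those without heterozygous library 2, 4 or 5 or control library 1, 2 or 5. The call of Lyn also ended after quantile normalization, and that of Ptpn11 with TMM (limma adjusted p = 0.0628) and with no filter (0.0692). Lyn was at 0.89 without heterozygous libraries 1 and 2 and at 0.18 without libraries 3, 4 and 5. Ptpn6, the gene of the related phosphatase SHP1, averaged 21867 ± 4676 in heterozygous cells and 16000 ± 1124 in controls and did not pass (limma adjusted p = 0.0737). Kitl, the gene of the Kit ligand, was scarce, at 0 to 3.97 normalized reads in heterozygous libraries and 0 to 10.9 in controls.

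Cd34 (ENSMUSG00000016494.9, chr1:194938819-194961279, plus strand) encodes a sialomucin of progenitor and endothelial surfaces. It read 159, 394, 71.4, 81.7 and 175 normalized reads in heterozygous libraries 1 to 5, against 410, 169, 172, 178 and 265 in control libraries 1 to 5. The groups overlapped: heterozygous libraries 1, 3 and 4 were below every control, while library 2 was close to the highest control. The means were 176 ± 130 in heterozygous cells and 239 ± 103 in controls (SD, n = 5 each), with a log2 fold change of -0.62 (SE 0.404, limma adjusted p = 0.304). Without heterozygous libraries 3, 4 and 5 the value was 0.16, and without libraries 1 and 2 it was -1.14. Of the sequence of Cd34, 148 exonic bases also lie in an antisense gene, Gm16897, and strand is not described, so its reads cannot be separated there. The related sialomucin gene Podxl2 averaged 5.28 ± 2.83 in heterozygous cells and 11.1 ± 4.09 in controls and was not called (limma adjusted p = 0.134).

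Fcgr3 and Fcgr2b encode CD16 and CD32, an activating and an inhibitory receptor for the constant part of immunoglobulin G. One antibody commonly used for the gate binds both, so a sort on CD16/32 does not separate them. Both genes lie on the minus strand of chromosome 1 of mm10, Fcgr3 (ENSMUSG00000059498.13) at chr1:171051174-171064935 and Fcgr2b (ENSMUSG00000026656.15) at chr1:170958617-170976547. Their ligand-binding coding parts are near copies: over 509 aligned bases, 491 were identical (96.5%), with a longest identical run of 129. A stretch of 180 coding bases from each, built from GENCODE M21 and spanning 2 exons, is shown because a read within it is assigned to a gene by few letters. Capitals mark the 3 bases that differ between the 2 stretches (chr1:171054141-171057817 for Fcgr3 and chr1:170966648-170968106 for Fcgr2b, intron included).
Fcgr3: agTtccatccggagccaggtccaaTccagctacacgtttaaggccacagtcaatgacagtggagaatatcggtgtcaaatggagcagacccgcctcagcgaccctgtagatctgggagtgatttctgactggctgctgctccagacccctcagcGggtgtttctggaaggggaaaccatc
Fcgr2b: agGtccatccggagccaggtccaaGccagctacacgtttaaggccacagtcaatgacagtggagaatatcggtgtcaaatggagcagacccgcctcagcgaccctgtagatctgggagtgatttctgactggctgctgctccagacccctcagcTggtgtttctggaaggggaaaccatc
Of the 50-base words of Fcgr3 transcripts, 9.58% also occur in Fcgr2b (166 words), and the same words make up 2.92% of those of Fcgr2b. How reads of these words were counted is not given in the sources used here. Both levels are uncertain for that reason, Fcgr2b the more so as the lower gene per kb, and by how much was not measured.

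Fcgr3 read 30703, 19584, 4501, 6549 and 12366 normalized reads in heterozygous libraries 1 to 5, against 9972, 11112, 6177, 13844 and 8444 in control libraries 1 to 5. Heterozygous libraries 1 and 2 were above every control, library 3 was below every control, and the other two were within the control range. The means of 14741 ± 10675 in heterozygous cells and 9910 ± 2873 in controls (SD, n = 5 each) did not differ beyond that spread (log2 fold change 0.29, SE 0.427, limma adjusted p = 0.666). Fcgr2b read 3620, 3748, 2707, 3139 and 3210 in heterozygous libraries, against 3784, 3509, 2989, 3473 and 2764 in controls. Its groups overlapped almost wholly, with means of 3285 ± 415 in heterozygous cells and 3304 ± 416 in controls (SD, n = 5 each) and a log2 fold change of -0.01 (SE 0.124, limma adjusted p = 0.971). The sign of the Fcgr2b value turned to 0.06 with TMM, and upper quartile scaling gave -0.70, close to the -0.81 of all genes under that scaling. The direction of Fcgr3 turned to -0.42 without heterozygous libraries 1 and 2 and to -0.40 with upper quartile scaling, and stood at 1.36 without libraries 3, 4 and 5.

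The balance of the 2 receptors within a library does not depend on the scaling of libraries. Fcgr3 exceeded Fcgr2b by 8.48, 5.23, 1.66, 2.09 and 3.85 times in heterozygous libraries 1 to 5, against 2.64, 3.17, 2.07, 3.99 and 3.05 times in control libraries 1 to 5. The first 2 heterozygous libraries were above every control ratio and library 3 was below every one. The mean log2 ratio of Fcgr2b to Fcgr3 differed by -0.30 between heterozygous and control libraries (2-sided exact permutation test over all assignments of the 10 libraries, p = 0.524). Without heterozygous libraries 1 and 2 the difference was 0.30, the opposite direction.

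**Figure D3:**
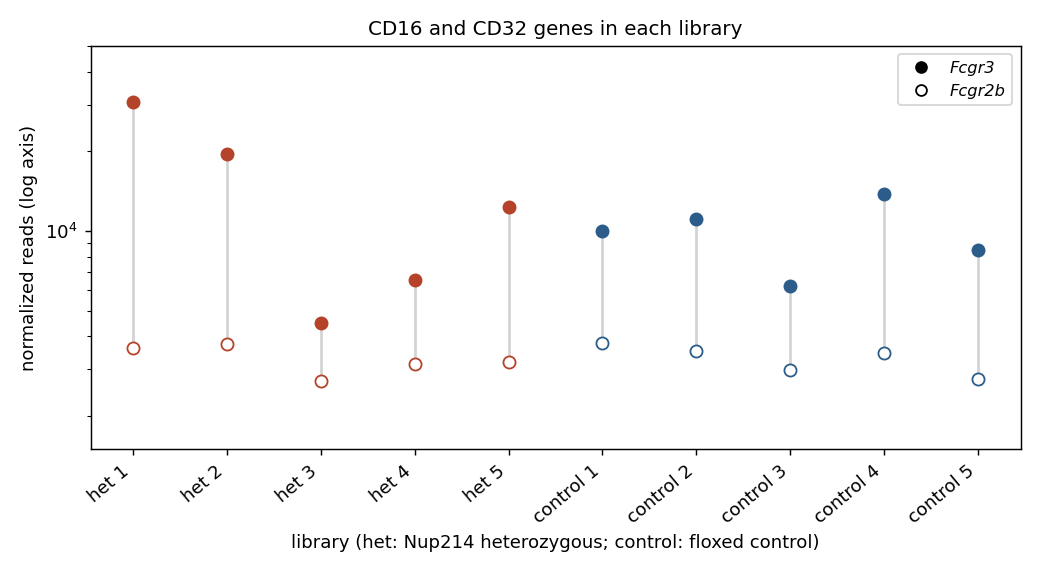
Normalized reads (logarithmic axis) of Fcgr3 (filled) and Fcgr2b (open) in each library, heterozygous (red) left of control (blue), with a line joining the 2 genes of a library. Fcgr2b stays between 2707 and 3784 in all 10 libraries, while Fcgr3 spans 4501 to 30703 in heterozygous libraries and 6177 to 13844 in controls.

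Of 11 other Fc gamma receptor and signalling genes tested, Lyn was called higher, 0 were lower and 10 were not called, with a median log2 fold change of 0.13. This count depended on which heterozygous libraries were included. Without libraries 1 and 2, 6 of the 11 passed as higher and 0 as lower (median 0.35), where 9.91% of all genes were higher and 12.5% lower. Without libraries 3, 4 and 5, 1 passed as higher and 3 as lower (median -0.12), where 8.39% of all genes were higher and 9.31% lower. Fcgr1, the gene of the high-affinity receptor CD64, averaged 12.8 ± 9.36 normalized reads in heterozygous cells and 3.08 ± 2.42 in controls (SD, n = 5 each) and did not pass (limma adjusted p = 0.108). The shared signalling chain gene Fcer1g ran from 10979 to 26787 in heterozygous libraries and from 19073 to 23042 in controls. Syk, the kinase recruited to that chain, averaged 1551 ± 288 in heterozygous cells and 1819 ± 209 in controls (limma adjusted p = 0.246), and Inpp5d, the lipid phosphatase recruited by CD32, averaged 3597 ± 835 in heterozygous cells and 2987 ± 72.9 in controls (limma adjusted p = 0.291).

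Ly6a (ENSMUSG00000075602.10, chr15:74994877-74998031, minus strand) encodes Sca-1, a lipid-anchored protein of stem and progenitor cells by whose absence the cells were sorted. It read 87.8, 145, 77.8, 126 and 198 normalized reads in heterozygous libraries 1 to 5, against 244, 206, 254, 190 and 187 in control libraries 1 to 5. Transcripts were thus found in every library despite the negative gate, and 4 of 5 heterozygous libraries were below every control while library 5 lay within the control range. The means were 127 ± 48.5 in heterozygous cells and 216 ± 30.9 in controls (SD, n = 5 each), a log2 fold change of -0.83 (SE 0.232, limma adjusted p = 0.0339). This call ended in 8 of the 10 fits that left out 1 library, all but those without heterozygous library 2 or 5, with adjusted p up to 0.0864. It ended also after quantile normalization (adjusted p = 0.0630). The value was -0.78 without heterozygous libraries 1 and 2 and -0.92 without libraries 3, 4 and 5.

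Ly6a belongs to a cluster of related genes on chromosome 15, and 195 of its 50-base words (15.0%) also occur in Ly6c1, 31 in Ly6i and 3 in Ly6c2. Ly6c1 ran from 12.3 to 24.1 normalized reads in heterozygous libraries and from 14.4 to 33.7 in controls, below Ly6a in each group. Ly6c2, which encodes the monocyte and neutrophil marker Ly6C, averaged 45650 ± 27981 in heterozygous cells and 89564 ± 14630 in controls (SD, n = 5 each, log2 fold change -1.18, limma adjusted p = 0.0405). That call ended in 8 of 10 fits that left out 1 library (all but those without heterozygous library 1 or 2, adjusted p up to 0.0858), with edgeR (adjusted p = 0.0783) and with a pseudocount of 0.1 (limma adjusted p = 0.0532). Ly6c2 was at -1.75 without heterozygous libraries 1 and 2 and at -0.32 without libraries 3, 4 and 5. Per 1000 normalized reads of Ly6c2, Ly6a stood at 1.54, 1.65, 4.22, 5.04 and 4.98 in heterozygous libraries 1 to 5, against 3.06, 2.75, 2.29, 1.95 and 2.21 in control libraries 1 to 5. The ratio was below every control in heterozygous libraries 1 and 2 and above every control in libraries 3, 4 and 5. Whether reads of Ly6c1 or Ly6c2 were counted to Ly6a was not tested. Of 6 Ly6 family genes tested of 10 listed, 3 were called lower (Ly6m, Ly6k and Ly6c2) and 0 higher, with a median log2 fold change of -0.77. Of all tested genes, 8.01% were called lower. Ly6k, a gene known from testis, averaged 72.8 ± 116 in heterozygous cells and 274 ± 90.4 in controls (limma adjusted p = 0.0203, 0.0520 without control library 1, and 0.138 with edgeR), and Ly6m averaged 2.88 ± 2.16 in heterozygous cells and 17.5 ± 7.20 in controls (limma adjusted p = 0.0126).

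Il7r (ENSMUSG00000003882.5, chr15:9505788-9530176, minus strand) encodes the interleukin 7 receptor alpha chain of lymphoid progenitors. It was close to the limit of detection, with 1 to 8 reads per heterozygous library and 3 to 12 reads per control. It read 0.954, 4.09, 3.17, 6.88 and 4.61 normalized reads in heterozygous libraries 1 to 5, against 4.96, 5.54, 3.75, 12.5 and 3.93 in control libraries 1 to 5. The groups overlapped, and the log2 fold change of -0.55 (SE 0.459, limma adjusted p = 0.426) turned to 0.16 after quantile normalization. Its partner chain gene Il2rg, which serves several cytokine receptors, was higher in heterozygous cells at 647 ± 122 against 284 ± 63.6 in controls (SD, n = 5 each, log2 fold change 1.19, limma adjusted p = 0.00200). It was the only call among 6 partner and signalling genes. The kinase gene Jak1 averaged 5071 ± 1762 in heterozygous cells and 3116 ± 293 in controls and did not pass (limma adjusted p = 0.0677).

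Ptprc (ENSMUSG00000026395.16, chr1:138062861-138175708, minus strand) encodes CD45, the membrane phosphatase of all nucleated blood cells. It read 2917, 3505, 7015, 6277 and 8515 normalized reads in heterozygous libraries 1 to 5, against 3510, 3670, 2563, 3021 and 3146 in control libraries 1 to 5. Heterozygous libraries 3, 4 and 5 were above every control, and libraries 1 and 2 were within the control range. The means were 5646 ± 2373 in heterozygous cells and 3182 ± 435 in controls (SD, n = 5 each), and the log2 fold change of 0.72 (SE 0.255) did not pass (limma adjusted p = 0.0754). It passed with DESeq2 (adjusted p = 0.0219) and without heterozygous library 1 or 2 (limma adjusted p = 0.0156 and 0.0452), and the value was 0.02 without heterozygous libraries 3, 4 and 5.

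Ly6g (ENSMUSG00000022582.4, chr15:75155240-75159126, plus strand) encodes a surface protein of mature neutrophils. It read 4.77, 11.4, 1294, 544 and 3679 normalized reads in heterozygous libraries 1 to 5, against 77.4, 45.3, 58.1, 76.2 and 77.3 in control libraries 1 to 5. Heterozygous libraries 3, 4 and 5 were above every control and libraries 1 and 2 were below every control, so the group held both extremes. Its mean was 1107 ± 1532 in heterozygous cells and 66.8 ± 14.6 in controls (SD, n = 5 each), 16.6 times as high. The difference of the mean log2 values was far smaller, 1.43 with an SE of 1.44 (limma adjusted p = 0.516). DESeq2 gave 4.05 (adjusted p = 0.0127) and edgeR 4.01 (adjusted p = 0.0550) on recovered reads. Without heterozygous libraries 1 and 2 the value was 4.37, and without libraries 3, 4 and 5 it was -2.97, the opposite direction.

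Cd3e (ENSMUSG00000032093.7, chr9:44998740-45009627, minus strand) encodes the epsilon chain of the T cell receptor complex. It had 0 to 3 reads per heterozygous library and 3 to 7 reads per control. It read 2.86, 0, 0.794, 1.72 and 3.08 normalized reads in heterozygous libraries 1 to 5, against 6.94, 2.77, 3.75, 3.13 and 9.17 in control libraries 1 to 5. The groups overlapped and the log2 fold change of -1.26 (SE 0.488) was not called (limma adjusted p = 0.0997). With so few reads no T cell share can be read from this gene. Its exons share 135 bases with the antisense gene Gm48719, and those of Fcgr2b share 155 with Gm38204. The T cell genes Cd3g, Cd2, Zap70, Trac and Trbc2 were under 10 normalized reads in every library.

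Of 11 other lineage exclusion genes tested, 2 were called lower, 0 higher and 9 were not called, with a median log2 fold change of -0.24. Cd5, a T and B-1 cell marker, averaged 5.90 ± 4.76 normalized reads in heterozygous cells and 30.3 ± 12.9 in controls (SD, n = 5 each, limma adjusted p = 0.0119), and Ly6c2 was the other. Itgam, the gene of the myeloid integrin CD11b, was abundant, from 1441 to 16832 in heterozygous libraries and from 5340 to 7792 in controls (log2 fold change -0.05, limma adjusted p = 0.961, with a sign that turned under TMM). The labels do not say whether CD11b was among the excluded lineage markers. The macrophage gene Adgre1 (F4/80) ran from 1280 to 2076 in heterozygous libraries and from 1485 to 1793 in controls. Cd3g, Cd8a and Klrb1c were under 10 in every library.

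The split of the heterozygous libraries seen for Ly6g and Ptprc was also present in the summed neutrophil, erythroid and monocyte markers. The summed level of 12 mature neutrophil markers was 40557 and 94841 normalized reads in heterozygous libraries 1 and 2 and 1732885 to 4077523 in libraries 3, 4 and 5, against 1111326 to 1631130 in controls. S100a8 was the largest part, at 908923 to 1589318 in heterozygous libraries 3, 4 and 5 and 458551 to 688149 in controls. Camp, of the same list, read 114066, 69229 and 205850 in heterozygous libraries 3, 4 and 5, against 172477 to 344937 in controls. Libraries 3 and 4 were thus below every control for Camp, which was not called (limma adjusted p = 0.0772). In heterozygous libraries 1 and 2 Camp was at 536 and 816. The summed level of 10 erythroid markers was 6.68 and 115 in heterozygous libraries 1 and 2 and 2259 to 2761 in libraries 3, 4 and 5, against 14.8 to 75.4 in controls, although Epor was under 10 in every library. In heterozygous libraries 3, 4 and 5 most of that sum was the globin genes Hba-a1, Hba-a2, Hbb-bs and Hbb-bt, with Hba-a1 at 801 to 939. Klf1, of the same list, was at 1.91 to 4.76 in heterozygous libraries and at 5.62 to 10.5 in controls. It was not called (limma adjusted p = 0.0963). The 10 monocyte and macrophage markers summed to 28657 and 20815 in heterozygous libraries 1 and 2 and to 308552 to 670450 in the other three, against 29409 to 84590 in controls. Most of that sum was the lysozyme gene Lyz2, at 23513 and 15040 in heterozygous libraries 1 and 2 and 303628 to 664560 in the other three, against 26462 to 81517 in controls.

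Single genes of these lists did not all follow that split. Of the 10 monocyte and macrophage genes, 4 were called higher, namely the lysosomal gene Cd68 and the complement genes C1qa, C1qb and C1qc, and 0 lower. Of all tested genes, 5% were called higher. Cd68 ran from 2148 to 2743 normalized reads in heterozygous libraries, against 503 to 809 in controls (log2 fold change 1.94, limma adjusted p = 7.6e-06), so all 5 heterozygous libraries were above every control. The call of C1qb ended in 7 of 10 fits without 1 library (all but heterozygous library 1 or 2 or control library 4), and those of Cd68, C1qa and C1qc held in all 10. Without heterozygous libraries 3, 4 and 5, the calls of C1qa (limma adjusted p = 0.124), C1qb and C1qc (0.0915) ended. The Cd68 call held there. The 10 B cell markers summed to 9117 and 9960 in heterozygous libraries 1 and 2 and to 18038 to 29835 in the other three, against 4422 to 6649 in controls, higher in all 5 heterozygous libraries. Ighm, the immunoglobulin mu gene, made up most of it and was called higher, at 18308 ± 9906 in heterozygous cells and 4185 ± 772 in controls (SD, n = 5 each, log2 fold change 1.95, limma adjusted p = 0.00354). Of the B cell receptor chain genes, Cd79a was called higher (limma adjusted p = 0.0369) and Cd79b lower (limma adjusted p = 0.0105), and the other 7 B cell markers were not called. The Cd79a call ended in 7 of 10 fits without 1 library (all but heterozygous library 1 or 2 or control library 5). It ended also without heterozygous libraries 3, 4 and 5 and with upper quartile scaling. Of the neutrophil list 1 of 12 genes was called higher and 0 lower, and of the erythroid list 2 of 8 tested were higher and 0 lower. The 7 NK cell markers summed to 2.45 to 9.54 in heterozygous libraries and 6.47 to 19.6 in controls, and every one was under 10. The part of these cell types in the levels of the gate markers, Kit and Ly6a included, was not tested.

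**Figure D4:**
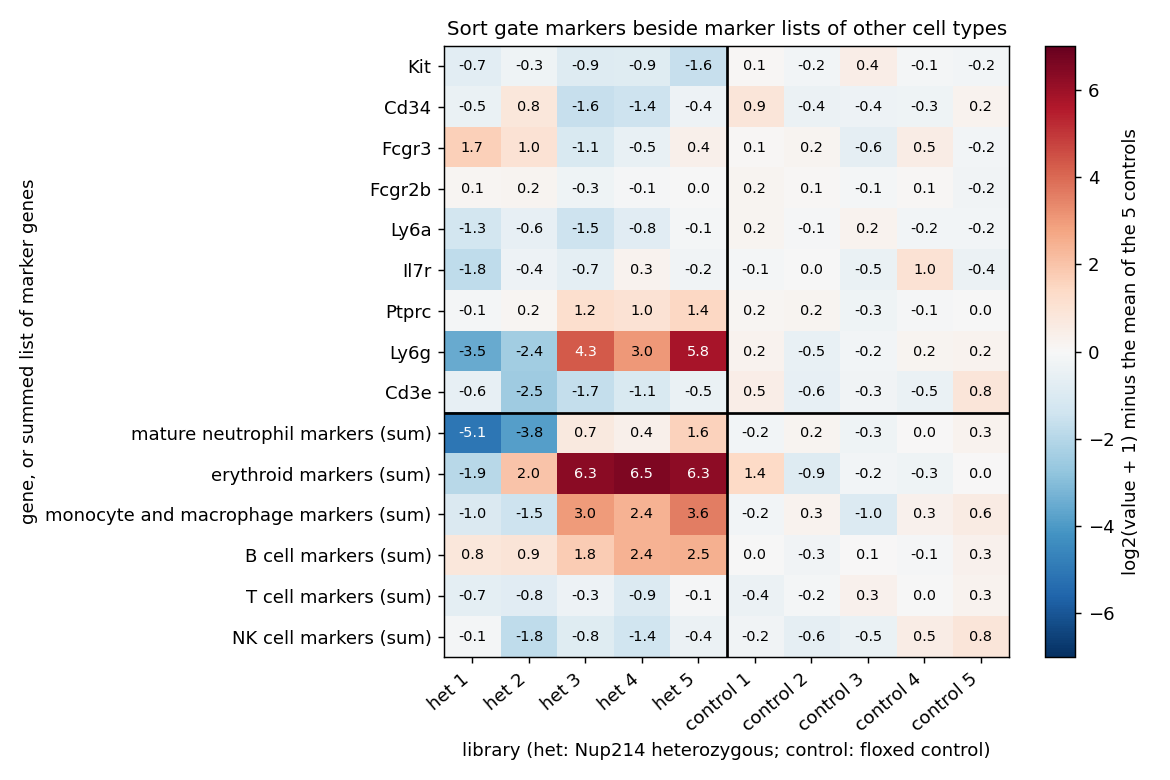
Difference of log2(value + 1) from the mean of the 5 controls (color and printed number) for the 9 gate markers and, below the line, for the summed levels of 6 marker lists, with the heterozygous libraries left of the controls. Ly6g is at -3.5 and -2.4 in heterozygous libraries 1 and 2 and at 3.0 to 5.8 in libraries 3, 4 and 5, and the neutrophil sum has the same signs. The B cell sum is at 0.78 to 2.49 in all 5 heterozygous libraries.

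Leaving those libraries out separates the members by how far they rest on them. Ly6a kept a negative value of similar size in either fit (-0.78 and -0.92), and Kit kept its sign with -1.13 without heterozygous libraries 1 and 2 and -0.51 without libraries 3, 4 and 5. Cd34, Fcgr3, Fcgr2b and Ly6g changed sign between these fits, Ptprc stood at 1.19 and 0.02, Il7r at -0.21 and -1.06, and Cd3e at -1.07 and -1.53.

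**Figure D5:**
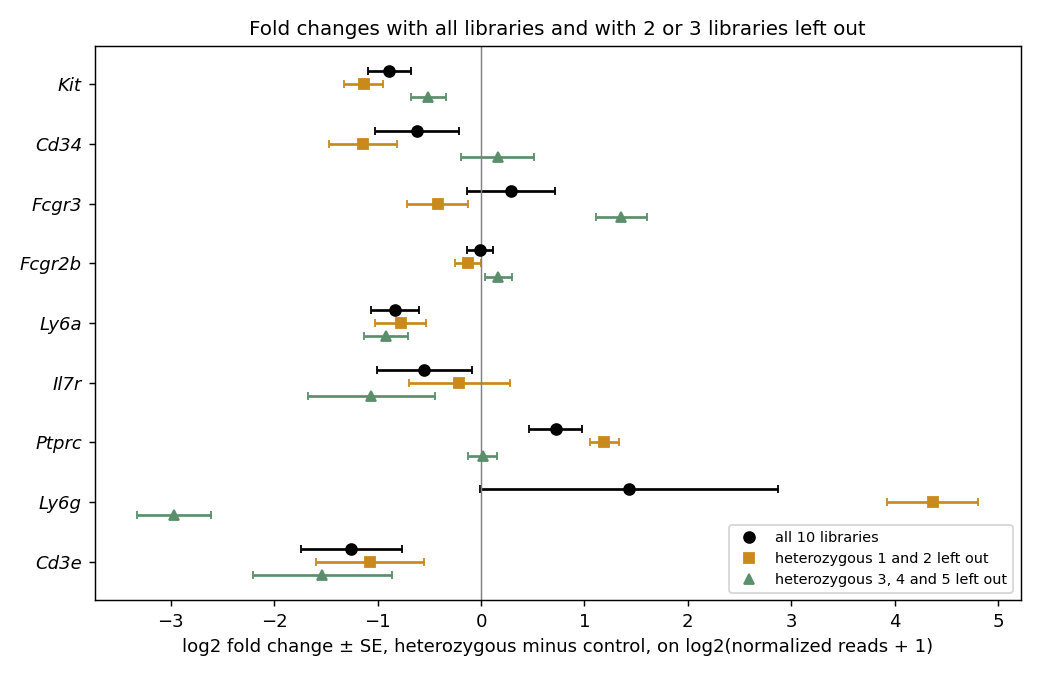
Log2 fold change ± SE (horizontal axis, heterozygous minus control, on log2(normalized reads + 1)) of each gate marker with all 10 libraries (black), without heterozygous libraries 1 and 2 (orange) and without heterozygous libraries 3, 4 and 5 (green). Kit and Ly6a are below 0 in all 3 fits, and Ly6g stands at 1.43, 4.37 and -2.97.

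Promoters of Kit, Ptprc and Ly6g are shown because Kit was lowest and Ptprc and Ly6g were highest in the same heterozygous library, number 5. Sequences are from RefSeq on GRCm38.p6 and run from 250 bases before to 50 bases after a transcript start, each in its gene's direction. Capitals mark AGGAAGT on either strand, the core letters of sites for ETS factors such as PU.1. The Kit window is chr5:75574737-75575036 (plus strand), the Ptprc window is chr1:138175256-138175555 (minus strand) and the Ly6g window is chr15:75155079-75155378 (plus strand).
Kit: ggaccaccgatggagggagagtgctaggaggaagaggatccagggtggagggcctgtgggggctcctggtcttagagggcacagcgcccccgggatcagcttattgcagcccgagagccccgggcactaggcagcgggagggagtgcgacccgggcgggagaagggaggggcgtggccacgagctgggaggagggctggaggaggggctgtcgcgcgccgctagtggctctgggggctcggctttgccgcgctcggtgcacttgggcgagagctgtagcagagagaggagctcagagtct
Ptprc: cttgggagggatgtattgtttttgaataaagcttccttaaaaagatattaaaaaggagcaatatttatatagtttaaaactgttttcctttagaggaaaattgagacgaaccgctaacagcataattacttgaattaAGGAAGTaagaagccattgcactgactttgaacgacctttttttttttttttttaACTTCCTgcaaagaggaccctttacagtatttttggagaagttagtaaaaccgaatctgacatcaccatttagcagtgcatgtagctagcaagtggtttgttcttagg
Ly6g: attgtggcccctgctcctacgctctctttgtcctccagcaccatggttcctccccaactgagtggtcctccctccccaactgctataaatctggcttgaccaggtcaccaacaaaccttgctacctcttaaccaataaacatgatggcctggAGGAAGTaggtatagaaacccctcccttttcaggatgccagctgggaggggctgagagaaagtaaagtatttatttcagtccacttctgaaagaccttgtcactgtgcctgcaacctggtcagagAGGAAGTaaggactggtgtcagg
The Ptprc and Ly6g windows shown each held 2 matches and are those with more matches, since the other window of each gene held 1. Both Kit windows and all windows of Cd34, Fcgr3 and Fcgr2b held 0, and the Il7r and Cd3e windows held 1 each. Of all 32851 promoter windows of this length, 9.35% held the motif at least once. AGATAAG, the letters of a GATA site, was in 0 member windows and in 3.04% of all promoters. No window was available for Ly6a, so its promoter was not searched. Matches are a description of letters and not of binding.

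Other stem and progenitor gate genes gave 1 higher and 2 lower calls among 11 tested, with a median log2 fold change of -0.51. Slamf1, the gene of the stem cell marker CD150, averaged 12.3 ± 3.97 normalized reads in heterozygous cells and 45.6 ± 24.9 in controls (SD, n = 5 each, limma adjusted p = 0.0138). Eng, the gene of the TGF-beta co-receptor endoglin, averaged 43.2 ± 14.0 in heterozygous cells and 89.0 ± 35.1 in controls (limma adjusted p = 0.0394), a call that ended in 8 of 10 fits without 1 library (all but heterozygous library 1 or 2), after quantile normalization (limma adjusted p = 0.0893) and with TMM (0.0553). Cd48, a relative of Slamf1 on most leukocytes, averaged 1265 ± 641 in heterozygous cells and 596 ± 51.4 in controls (log2 fold change 0.94, limma adjusted p = 0.0387), a call that ended in 7 of 10 such fits (all but heterozygous library 3, 4 or 5) and after quantile normalization. Cd48 was at 0.42 without heterozygous libraries 1 and 2 and at 1.72 without libraries 3, 4 and 5. Of 10 leukemia stem cell surface antigens tested, 2 were lower and 0 higher, with a median of 0.05. Cd33, a sialic acid binding receptor of myeloid cells, averaged 1286 ± 937 in heterozygous cells and 4290 ± 723 in controls (log2 fold change -2.13, limma adjusted p = 0.0142). Itgb3, an integrin beta chain gene, averaged 101 ± 17.4 in heterozygous cells and 165 ± 34.8 in controls (limma adjusted p = 0.0297), and its call ended in 6 of 10 (without heterozygous library 4 or 5 or control library 1, 2, 3 or 5) and after quantile normalization (limma adjusted p = 0.0573). The calls of Cd5, Slamf1, Cd33, Il2rg and Ly6m held in all 10 fits without 1 library.

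The 7 members with a mean of at least 100 normalized reads in a group were compared with 8313 genes. For each, the genes whose deviations from the group means over the 10 libraries ran closest were sought. All genes of a library share its scaling and depth. The split of the heterozygous libraries is part of these deviations. Ptprc was followed most closely by Jak1, Cyfip1 and Fgr (Pearson r of 0.99, 0.98 and 0.98). Ly6g was followed by the neutrophil product gene Lcn2 and by Gsn and Wfdc21 (r of 0.99 each). For Kit these were St6galnac6, Tecr and Rcc1l (0.96, 0.92 and 0.92), and for Cd34 Ube2a, Pycr1 and Slc22a5 (0.92, 0.92 and 0.90). For Fcgr3 they were Tmem177, Tmem184c and Pole2 (0.97 each), for Fcgr2b Rsl1, Ldah and Ganab (0.97, 0.95 and 0.93), and for Ly6a Irf1, Tmem138 and Pih1d1 (0.88, 0.88 and 0.87). These are the highest of many coefficients and serve as a description.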

How the data were processed

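RNA-seq was performed on sorted leukemia cells of 10 libraries. Per the labels' protocols, RNA was extracted with a miRNeasy kit, amplified by Geo-seq, a method for few cells, and a TruePrep kit gave the libraries. Molecular identifiers are not described, so precision from depth covers counting error only. Per the submitters' processing notes, Bowtie 0.12.9, Cufflinks 2.1.1, HTSeq, DESeq2 and mm10 were used, with no role or order given.

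The deposited table is named as FPKM, but the authors' values are a signal that is a whole multiple of 1 step per library, that is, a read count divided by a factor. Division by this step returned whole numbers within 0.01 for at least 99.996% of values above 0. Because the deposited values are normalized, count tests with edgeR 4.0.16 and DESeq2 1.42.0 on recovered reads are alternatives only.

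The test was limma 3.58.1 (R 4.3.3) on log2(normalized reads + 1) with an intensity trend, group as the only term, for genes with at least 1 in at least 5 libraries. Fold changes on this scale understate changes of low genes. The design allowed raw counts or normalized values, and the test for normalized values was used. The Fcgr2b to Fcgr3 ratio was tested by exact permutation (scipy 1.17.1). Whether libraries of a group are from separate mice is not stated, and p-values measure only the spread between them. On simulated data (22458 genes, 3 runs), limma recovered 8.96% of 1.5-fold, 53.7% of 2-fold and 88.4% of 4-fold changes, and 14 of 63906 unchanged genes were called. Changes were placed only in genes above a minimum mean level, which left out genes as low as Il7r and Cd3e. Genes were drawn independently with the same spread in both groups. These rates therefore do not cover genes that low, the split of the heterozygous libraries or a shift of the whole table. No 2 libraries of a group differed by counting error alone: the smallest chi-square per degree of freedom was 15.5. That measure cannot tell whether 2 libraries were made from the same cells or mouse.

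The members and gene lists were chosen with earlier results of these data known. Named genes are the members, Nup214, up to 4 genes with the smallest p per list, genes that share sequence with a member, and the 3 genes most like each member. Kitl, Fcer1g, Itgam, Adgre1, Lyz2, Ly6c1, Klf1, S100a8 and genes under 10 reads were named after their values were seen. Some genes of the lists, counted in them, are not reported by name here. Gene models came from GENCODE M21, which held 49806 of the 52171 symbols. Promoters came from RefSeq on GRCm38.p6. Shared words were exact 50-base matches between transcripts. Alternatives were other scalings, filters, a pseudocount of 0.1, quality weights, a replicate block, leaving out libraries, and, chosen after seeing the data, the count tests, a mean of at least 100 and leaving out heterozygous libraries 1 and 2 or 3, 4 and 5. Plots were drawn with matplotlib 3.10.9.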

Additional observations from a re-analysis of the deposited data

Results flagged for a closer look

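In 148 groups of 5 libraries, 1 group per gene checked and genotype, 4 had a library far from the other 4 relative to the whole range, and chance flags about 1 in 20. No gate marker was among them. The gap as a share of the range was 0.736 for Podxl2 (heterozygous library 3 lowest), 0.728 for Gp1bb and 0.737 for Pf4 (heterozygous library 1 lowest), and 0.713 for Prf1 (control library 5 highest). Each flagged library held few reads of its gene. Podxl2 was at 0.794 and Prf1 at 9.17 normalized reads there, and log2(normalized reads + 1) was 0 for Gp1bb and 0.97 for Pf4.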

How the results depend on the processing

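The counts of calls, 1122 higher and 1798 lower as fitted, depended on the processing. The lower count was 517 after quantile normalization, 808 with edgeR, 1119 with no filter, 1028 when 0.1 was the pseudocount, 1063 when at least 5 was required in 5 libraries, and 311 when a mean of at least 100 was. Upper quartile scaling gave 206 higher and 11202 lower; it uses only values above 0, and heterozygous libraries have fewer such genes. Without heterozygous libraries 1 and 2, 2098 were higher, and without libraries 3, 4 and 5, 1725. Leaving out 1 library gave 546 to 1308 higher and 484 to 2171 lower, both lowest without control library 1. Other counts below the fitted ones by over 1.5 times were 648 lower without control library 5 and 638 higher, 697 higher and 927 lower without control library 2, 688 higher and 1045 lower without control library 3, and 1032 lower without heterozygous library 5.

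Replicate numbers did not pair the libraries: deviations of same-numbered libraries correlated by -0.09 to 0.08, and 1 of 5 libraries matched its own number best. With the replicate block, 703 genes were higher and 945 lower, and Ly6a was at -0.83 and no longer called (limma adjusted p = 0.0723).

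Among members, Ly6a was at -0.82 and not called after quantile normalization, and Il7r turned to 0.16. Upper quartile scaling brought Cd34 (-1.31), Fcgr2b (-0.70) and Cd3e (-1.73) past the threshold and turned Fcgr3 to -0.40. TMM turned Fcgr2b to 0.060. Ptprc passed at 0.77 with quality weights and 0.83 with DESeq2, which also called Ly6g (4.05). Without heterozygous libraries 1 and 2, Cd34 was at -1.14, Ptprc at 1.19 and Ly6g at 4.37, Fcgr3 turned to -0.42 and the receptor ratio to 0.30. Without libraries 3, 4 and 5, Kit was at -0.51 and no longer called, Fcgr3 was at 1.36, and Cd34 (0.16), Fcgr2b (0.17) and Ly6g (-2.97) changed sign. The cause was not tested.

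Leaving out 1 library gave -1.03 to -0.70 for Kit, -1.01 to -0.68 for Ly6a, 0.54 to 0.93 for Ptprc, -0.98 to -0.37 for Cd34, -0.057 to 0.64 for Fcgr3 (below 0 without heterozygous library 1), -0.070 to 0.059 for Fcgr2b, 0.34 to 2.67 for Ly6g, -0.75 to -0.25 for Il7r, -1.45 to -0.94 for Cd3e and -0.58 to 0.011 for the receptor ratio. Il7r and Cd3e, at 12 reads or fewer per library, are limited by depth. Of the other named genes, upper quartile scaling turned Lyn (-0.087), Ptpn6 (-0.27), Inpp5d (-0.46) and Jak1 (-0.067). Inpp5d was at -0.12 without heterozygous libraries 3, 4 and 5. Itgam turned to 0.016 with TMM, 0.12 with quality weights, 0.49 with edgeR, 0.53 with DESeq2, 1.12 without heterozygous libraries 1 and 2, and ran from -0.41 to 0.48 without 1 library.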
